A study of Mus musculus with 15 samples.

Results

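Transcripts of 10 Toll-like receptor genes (Tlr1, Tlr2, Tlr4, Tlr5, Tlr6, Tlr7, Tlr8, Tlr9, Tlr11 and Tlr13) were followed in mouse bone marrow by bulk sequencing of total RNA. They were picked by gene symbol from a table of 38315 genes, which held 12 Toll-like receptor genes in all; Tlr3 and Tlr12 lie outside the chosen 10 and are described beside them. The samples were 7 marrows with acute myeloid leukaemia (AML) from transgenic mice of the genotype NUP98NSD1/FLT3ITD, 4 wild-type (WT) whole marrows and 4 WT lineage-negative marrows. NUP98-NSD1 encodes a fusion of a nuclear pore protein with a histone methyltransferase, FLT3-ITD carries a duplicated stretch within a receptor tyrosine kinase, and the controls carried neither. Lineage-negative marrow is marrow depleted of cells that bear surface antigens of mature blood lineages. The age and sex of the mice, the promoter that drives each transgene and any pooling of animals are not given in the labels, so p-values below measure the spread between these samples.

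Toll-like receptors are transmembrane proteins of innate immune cells that bind conserved molecules of microbes or nucleic acids. Tlr1, Tlr2, Tlr4, Tlr5 and Tlr6 act mainly at the cell surface on lipoproteins, lipopolysaccharide and flagellin, whereas Tlr7, Tlr8, Tlr9, Tlr11 and Tlr13 act in endosomes on RNA, DNA or the parasite protein profilin. After binding, most recruit the adaptor Myd88, and kinases and ubiquitin ligases then release NF-kB and activate interferon regulatory factors. In marrow their transcripts are best known from monocytes, neutrophils, dendritic cells and B cells, and some are also found in haematopoietic progenitors.

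Promoter sequences from RefSeq on build GRCm38.p6, from 250 bases before to 50 bases after the start site, were at hand for 8 of the 10 genes, which have 10 such promoters. Those of Tlr9, Tlr11, Tlr13 and Tlr5 are printed because these genes show the 4 patterns described below. These are the rises in AML of Tlr9 and Tlr11 and the loss of Tlr13 in lineage-negative marrow. The last is Tlr5, not called between AML and whole marrow on either scale with all libraries. The printed promoters of Tlr9, Tlr11, Tlr13 and Tlr5 lie on the plus strand at chr9:106222348-106222647, chr14:50357664-50357963, chrX:106143025-106143324 and chr1:182954538-182954837, in that order. Capitals mark GAGGAA or its reverse complement TTCCTC, the core that the myeloid transcription factor PU.1 binds.
Tlr9: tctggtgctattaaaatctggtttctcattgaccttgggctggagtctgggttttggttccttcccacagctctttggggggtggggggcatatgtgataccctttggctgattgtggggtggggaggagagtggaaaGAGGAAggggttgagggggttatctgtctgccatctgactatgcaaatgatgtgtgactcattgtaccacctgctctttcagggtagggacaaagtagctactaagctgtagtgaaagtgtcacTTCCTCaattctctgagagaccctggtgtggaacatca
Tlr11: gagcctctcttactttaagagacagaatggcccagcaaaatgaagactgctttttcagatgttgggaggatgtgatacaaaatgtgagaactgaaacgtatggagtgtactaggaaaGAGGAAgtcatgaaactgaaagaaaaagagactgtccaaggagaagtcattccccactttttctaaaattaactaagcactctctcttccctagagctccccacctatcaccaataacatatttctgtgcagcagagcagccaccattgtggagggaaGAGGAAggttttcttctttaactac
Tlr13: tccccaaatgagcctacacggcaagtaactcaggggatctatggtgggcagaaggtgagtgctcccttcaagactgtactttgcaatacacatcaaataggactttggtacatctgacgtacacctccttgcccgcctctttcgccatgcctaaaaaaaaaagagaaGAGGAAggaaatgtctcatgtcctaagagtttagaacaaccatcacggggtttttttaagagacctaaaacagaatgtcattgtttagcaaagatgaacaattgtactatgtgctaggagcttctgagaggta
Tlr5: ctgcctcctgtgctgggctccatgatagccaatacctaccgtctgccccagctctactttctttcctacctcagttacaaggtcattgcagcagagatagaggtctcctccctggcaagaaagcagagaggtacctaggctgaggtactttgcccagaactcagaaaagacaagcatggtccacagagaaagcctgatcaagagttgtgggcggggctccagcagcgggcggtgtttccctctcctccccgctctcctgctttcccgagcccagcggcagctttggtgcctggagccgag
In Tlr9 the matches begin at −112 and 13, in Tlr11 at −133 and 26 and in Tlr13 at −83, where 1 is the start site. The Tlr5 window held no match. On either strand GAGGAA occurred in 5 of the 10 promoters, those of Tlr1, Tlr8, Tlr9, Tlr11 and Tlr13 (1 each), and in 28.3% of all 32851 promoters of this length. The interferon regulatory factor pattern GAAANNGAA was in 3 of the 10 promoters, of Tlr6, Tlr8 and Tlr11, and in 8.56% of all promoters. TTGCNNAA, a pattern of CEBP factors, was in 3 of the 10 and in 10.8% of all promoters. The STAT pattern TTCNNNGAA was in 3 of the 10 and in 8.30% of all promoters. For the RUNX pattern TGTGGT these values were 1 of the 10 and 16.8%. The inner part of an NF-kB site, GGNNTTTCC, was in 1 of the 10, that of Tlr5, and in 5.82% of all promoters. TGATTNAT, a pattern of HOX and PBX factors, was in none of the 10 and in 3.22% of all promoters. A match is only a description of these letters, and the patterns searched may overlap one another.

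Levels are given as normalized counts, meaning estimated reads divided by 1 size factor per library, as deposited. Libraries held an estimated 20.3 to 35.1 M reads (M, mega) for AML, 11.4 to 17.2 for whole and 20.3 to 28.1 for lineage-negative marrow, and 3 reads were worth 1.96 to 4.09 normalized counts. The deposited scaling shifts the groups: over the 18941 genes tested, AML exceeded whole marrow by a median of 0.67 on the log2 scale and lineage-negative marrow by 0.02, and lineage-negative exceeded whole marrow by 0.59. With factors of the trimmed mean of M values (TMM) these medians became −0.01, 0.03 and −0.09, so each difference against whole marrow is given on both scales. Whole marrow also carried reads over genes that marrow is not known to use. The mean level of 1750 olfactory and vomeronasal receptor genes was 1.70 to 3.22 normalized counts per kb of exon there, against 0.0667 to 0.147 in lineage-negative and 0.0933 to 0.828 in AML libraries. Calls required an adjusted p under 0.05 together with a log2 difference of at least 1 in size (limma, Benjamini-Hochberg adjustment over all genes tested), and differences are of log2(normalized count + 1).

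The lineage-negative label was checked against markers, and not all markers of mature lineages were called lower than in whole marrow. The progenitor markers Kit, Cd34, Gata2, Sox4, Myb and Meis1 were called higher than in whole marrow (6 of 6), and neutrophil markers were called lower (11 of 11), as were B cell markers (7 of 7). The summed neutrophil markers were 2117 to 18281 normalized counts in lineage-negative marrow and 433801 to 1155570 in whole marrow. With the deposited scaling the eosinophil markers Prg3, Epx and Siglecf were not called lower (3 of 6 were, and 4 after TMM scaling), nor were the monocyte markers Csf1r, Ly6c2, Ccr2, Cx3cr1 and F13a1 (7 of 12 were, and 9 after TMM scaling). Of 6 T and NK cell markers 4 were called lower on both scales, Cd3d, Cd3e, Cd8a and Klrb1c. Nkg7 of that list was called higher, though not after TMM scaling. Of 6 erythroid markers 4 were called lower, and of 5 megakaryocyte markers 2 were called higher and 1 lower, on both scales. The part of cell numbers and of RNA per cell in these marker levels was not tested. No listed marker of any cell type was at 0 in every library of a group.

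Against whole marrow, 7 of the 10 receptor genes were called higher in AML and none was called lower, where 27.3% of all genes tested were called higher and 11.3% lower. The 7 were Tlr1, Tlr6, Tlr7, Tlr8, Tlr9, Tlr11 and Tlr13, and Tlr2, Tlr4 and Tlr5 were not called. After TMM scaling 3 stayed called higher, Tlr7, Tlr9 and Tlr11, with none lower, beside 4.73% of all genes called higher and 16% lower. The median log2 difference of the 10 genes was 1.34 beside 0.67 for all genes, and 0.65 beside −0.01 after TMM scaling. All 7 AML values lay above all 4 whole marrow values for 8 of the 10 genes on the deposited scale. After TMM scaling this held for 3 of the 10. The share of all genes that separate in this way was not counted, so these counts have no background beside them. In bulk samples, a change in the number of cells of a type and a change in RNA per cell cannot be told apart.

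Against lineage-negative marrow, all 10 genes were called higher in AML on both scales, where 17.7% of all genes were called higher and 12.5% lower (17.6% and 12.4% after TMM scaling). The log2 differences ran from 2.33 for Tlr6 to 6.64 for Tlr13, with a median of 3.32 beside 0.02 for all genes. AML and lineage-negative values did not overlap for any of the 10, and the share of all genes without overlap was not counted here either. Both comparisons use the same 7 AML libraries. Between the WT marrows, 8 of the 10 genes were called lower in lineage-negative than in whole marrow and none higher, where 17.2% of all genes were called lower and 33.1% higher. Tlr6 and Tlr9 were the genes not called, and after TMM scaling all 10 were called lower, beside 24.8% of all genes lower and 11% higher.

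**Figure D1:**
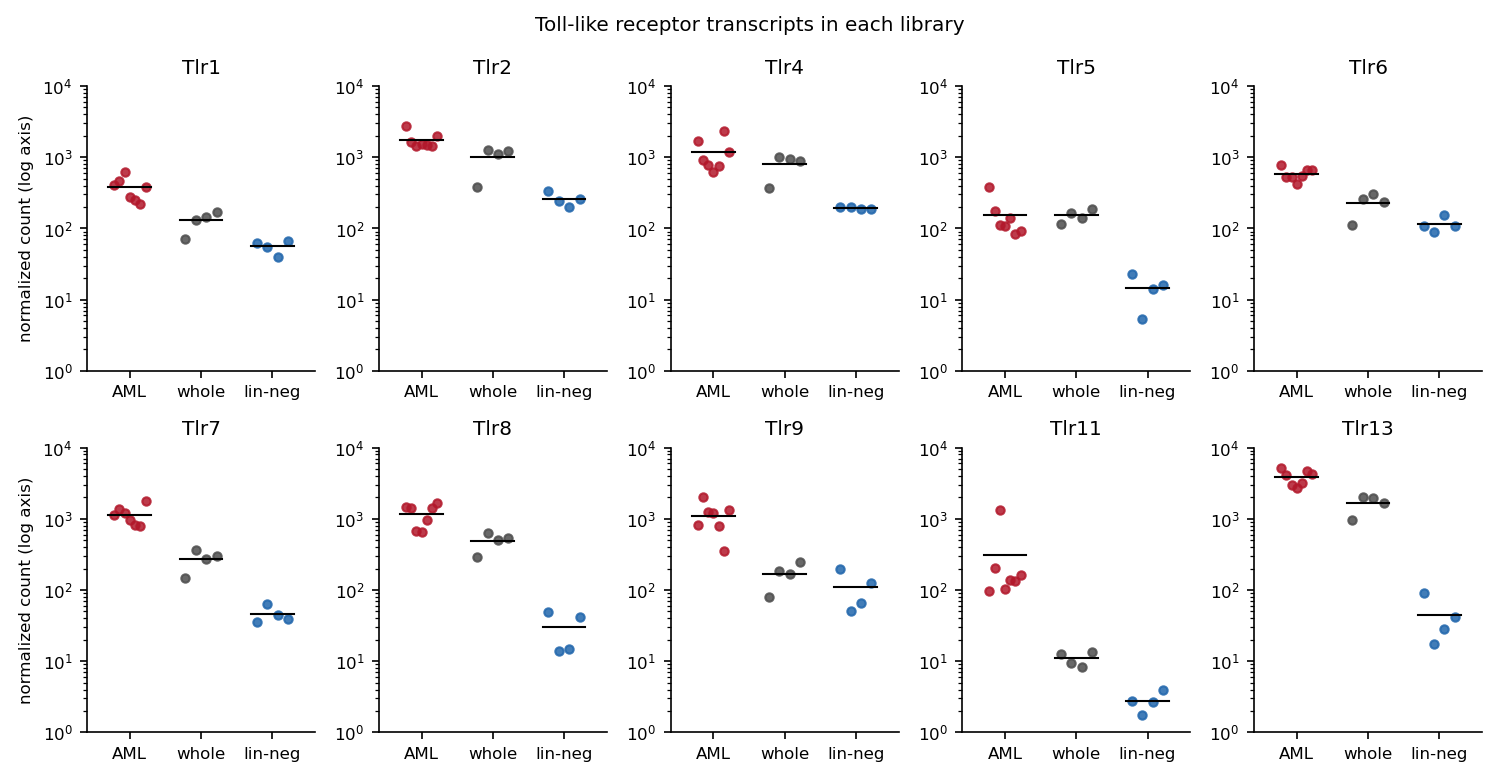
Normalized count (log axis) of each of the 10 receptor genes in 7 AML, 4 WT whole and 4 WT lineage-negative (lin-neg) libraries. Points are libraries and bars are group means; AML points lie above every lineage-negative point in all 10 panels, and Tlr4 and Tlr5 overlap between AML and whole marrow.

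Several cell type markers differed between the groups as well. Of 12 monocyte and macrophage markers, 8 were called higher and 1 lower in AML than in whole marrow (4 and 1 after TMM scaling), and their sum was 73126 to 135818 normalized counts in AML, 18089 to 39207 in whole marrow and 18941 to 29727 in lineage-negative marrow. Of 7 conventional dendritic cell markers, 7 were called higher than in whole marrow (5 after TMM scaling). Their sums were 26431 to 227896 in AML, 4225 to 9160 in whole marrow and 913 to 2277 in lineage-negative marrow. In AML these sums mainly reflect Cd74 and the MHC class II gene H2-Ab1, with means of 43296 and 23332. The AML means of Xcr1, Clec9a, Itgae, Cd209a and Zbtb46 were 266, 475, 329, 1552 and 459. Zbtb46 had a mean of 524 in lineage-negative marrow. Of 11 neutrophil markers none was called against whole marrow (2 lower after TMM scaling) and 11 were higher than in lineage-negative marrow. Of 8 plasmacytoid dendritic cell markers, 3 were higher than in whole marrow (1 higher and 1 lower after TMM scaling) and 7 were higher than in lineage-negative marrow. B cell (7 of 7), erythroid (6 of 6), eosinophil (6 of 6) and megakaryocyte (5 of 5) markers were called lower than in whole marrow. Of 6 T and NK cell markers 2 were higher (none higher and 2 lower after TMM scaling), and of 5 markers of stroma and endothelium none was called (1 lower after TMM scaling). The part of cell makeup in the receptor differences was not tested.

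Tlr2, which recognises bacterial lipoproteins together with Tlr1 or Tlr6, was the highest of the surface receptors. The gene (ENSMUSG00000027995) lies on chromosome 3 from 83743579 to 83749074 in the coordinates of the table. In AML it ranged from 1436 to 2711 normalized counts with a median of 1547. The whole marrows had 379.6, 1119, 1236 and 1262 normalized counts, and the lineage-negative marrows 198, 247, 263 and 335. All AML libraries were above all whole marrows, of which replicate 1 was far below the other three. The log2 difference against whole marrow was 0.91 ± 0.28 (SE, adjusted p = 0.00781), under the fold required for a call, and 0.22 after TMM scaling (adjusted p = 0.419). It was 0.50 without whole marrow replicate 1 (adjusted p = 0.0409), and 1.02 to 1.08 and called without replicate 2, 3 or 4. AML exceeded lineage-negative marrow by 2.73 ± 0.28 (adjusted p = 1.5e-07).

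Tlr1 and Tlr6, the partners of Tlr2, lie 18467 bases apart on chromosome 5 (Tlr1, ENSMUSG00000044827, 65082022 to 65090906; Tlr6, ENSMUSG00000051498, 65109374 to 65117440; both on the minus strand). Of all 50-base words in their transcripts, 15.4% of those of Tlr1 also occurred in Tlr6 and 12.3% of those of Tlr6 in Tlr1, so the split of reads between the pair is uncertain. Tlr1 ranged from 221 to 625.3 normalized counts in AML, with a median of 384. In whole marrow the libraries had 71.9, 131, 144 and 171 normalized counts of Tlr1, and the lineage-negative marrows 39.7, 55.3, 62.7 and 66.0. The 3 groups did not overlap for Tlr1. Tlr6 ranged from 423 to 789.9 in AML, with a median of 541. Whole marrow libraries gave 113, 232, 256 and 308 normalized counts of Tlr6, and the lineage-negative marrows 90.1, 108.9, 109.8 and 156. For Tlr6 the AML libraries stood above both other groups, while a lineage-negative value lay above the lowest whole marrow. Against whole marrow Tlr1 was higher by 1.52 ± 0.29 (SE, adjusted p = 0.000218) and Tlr6 by 1.43 ± 0.25 (adjusted p = 8.72e-05). After TMM scaling the differences were 0.83 and 0.74, with adjusted p of 0.0168 and 0.00403, short of the fold for a call.

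Tlr4, the lipopolysaccharide receptor, is on chromosome 4 from 66745821 to 66848521 (ENSMUSG00000039005). AML libraries ranged from 621 to 2317 normalized counts with a median of 908. The 4 whole marrow values were 371, 873, 941 and 1016 normalized counts. The lineage-negative marrows had 186, 187, 197 and 201, the narrowest spread of the 10 genes in that group relative to the mean. AML and whole marrow overlapped, and 3 of 7 AML libraries were above every whole marrow. The log2 difference against whole marrow was 0.51 ± 0.32 (SE, adjusted p = 0.168), and −0.19 after TMM scaling (adjusted p = 0.638). Against lineage-negative marrow Tlr4 was higher by 2.46 ± 0.32 (adjusted p = 3.28e-06).

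Tlr5, the flagellin receptor, is on chromosome 1 from 182782353 to 182804010 (ENSMUSG00000079164). In AML the level was between 83.9 and 378 normalized counts with a median of 113. Among whole marrows the values were 115, 139.8, 165 and 189.6 normalized counts, and the lineage-negative marrows had 5.29, 14.1, 16.3 and 22.7. AML replicate 1 was above every whole marrow and 4 of 7 AML libraries were below every one. The log2 difference against whole marrow was −0.13 ± 0.39 (SE, adjusted p = 0.779) and −0.82 after TMM scaling (adjusted p = 0.0982). After TMM scaling 6 of 7 AML libraries were below every whole marrow. Without AML replicate 1 the value after TMM scaling was −1.06 and was called lower. Against lineage-negative marrow Tlr5 was higher in AML by 3.29 ± 0.39 (adjusted p = 1.01e-06), and whole marrow exceeded lineage-negative marrow too, where the log2 difference was −3.42 ± 0.44 (adjusted p = 2.46e-06).

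Tlr7, an endosomal receptor of single-stranded RNA, was called higher in AML than in both WT marrows on both scales. It lies on the X chromosome from 166087925 to 166113554 (ENSMUSG00000044583), 40599 bases from Tlr8. Values in AML ran from 779.9 to 1752 normalized counts with a median of 1146. The whole marrows had 145, 272, 304 and 367 normalized counts, and the lineage-negative marrows 35.4, 38.5, 44.1 and 63.5. The 3 groups were fully apart. The log2 difference against whole marrow was 2.09 ± 0.26 (SE, adjusted p = 4.27e-06), or 4.27-fold, and 1.40 ± 0.21 after TMM scaling (adjusted p = 5.96e-05). Against lineage-negative marrow it was 4.61 ± 0.26 (adjusted p = 9.13e-11).

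Tlr9, an endosomal receptor of DNA with unmethylated CpG, is on chromosome 9 from 106099797 to 106104082 (ENSMUSG00000045322), and its promoter is the first of those printed above. AML libraries ranged from 349 to 1991 normalized counts with a median of 1196. In whole marrow the libraries had 80.8, 167, 184 and 244 normalized counts, and the lineage-negative marrows 50.2, 66.1, 125 and 199.7. AML stood apart from both WT groups, which overlapped each other. The log2 difference against whole marrow was 2.64 ± 0.41 (SE, adjusted p = 3.43e-05), or 6.21-fold, and 1.94 ± 0.40 after TMM scaling (adjusted p = 0.00106). Against lineage-negative marrow it was 3.34 ± 0.41 (adjusted p = 1.8e-06). Of the 10 genes Tlr9 had the difference nearest to 0 between the WT marrows, −0.71 ± 0.47 (SE, adjusted p = 0.191). After TMM scaling that difference was −1.40 (adjusted p = 0.014) and called, but not without lineage-negative replicate 2 or 3.

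Tlr8, the X-linked neighbour of Tlr7 and also an endosomal receptor, lies from 166025692 to 166047325 (ENSMUSG00000040522). In AML the level was between 649.8 and 1678 normalized counts with a median of 1402. Whole marrow libraries gave 287, 497, 532 and 639 normalized counts, and the lineage-negative marrows 14.1, 14.98, 41.8 and 49.0. All AML libraries were above the whole marrows, though replicates 3 and 4 were close to the highest of them. The log2 difference was 1.23 ± 0.35 (SE, adjusted p = 0.00495), and 0.54 after TMM scaling (adjusted p = 0.22). Without whole marrow replicate 1 it was 1.00, just under the fold for a call. Against lineage-negative marrow Tlr8 was higher by 5.37 ± 0.35 (adjusted p = 4.71e-10).

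Tlr13, an endosomal receptor of bacterial ribosomal RNA in mice, lies on the X chromosome from 105186810 to 105204099 (ENSMUSG00000033777). Values in AML ran from 2725 to 5109 normalized counts with a median of 4175. The 4 whole marrow values were 959, 1664.5, 1967 and 2025 normalized counts, and the lineage-negative marrows had 17.6, 28.2, 41.1 and 89.9. The groups were fully apart, with lineage-negative marrow far below the others. Against lineage-negative marrow Tlr13 was higher in AML by 6.64 ± 0.32 (SE, adjusted p = 1.98e-11), or 99.5-fold. Whole marrow exceeded lineage-negative marrow as well, with a log2 difference of −5.39 ± 0.36 (adjusted p = 4.95e-09). AML against whole marrow gave 1.25 ± 0.32 (adjusted p = 0.00229), and 0.55 after TMM scaling (adjusted p = 0.163).

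Tlr11, an endosomal receptor of profilin of protozoan parasites, lies on chromosome 14 from 50595371 to 50601120 (ENSMUSG00000051969). AML libraries ranged from 95.4 to 1310 normalized counts with a median of 137. Among whole marrows the values were 8.35, 9.38, 12.6 and 13.6 normalized counts, and the lineage-negative marrows had 1.76, 2.64, 2.72 and 3.92. The AML values stood far above both WT groups, and 3 of the 4 lineage-negative values were at or under the level of 3 reads, within 0.02 of a read. Per kb of exon, Tlr11 in whole marrow was 1.19 to 2.45 times the mean of the silent receptor genes in the same library. The log2 difference of AML against whole marrow was 4.00 ± 0.52 (SE, adjusted p = 5.94e-06), 3.34 ± 0.56 after TMM scaling (adjusted p = 0.000167) and 5.53 after subtraction of that background. The difference between the WT marrows was −1.68 ± 0.59 (adjusted p = 0.018), and −0.28 after subtraction (adjusted p = 0.714). With AML replicate 3 left out, the mean of the other AML libraries was 139.8 normalized counts.

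The calls of Tlr7, Tlr9 and Tlr11 against whole marrow after TMM scaling held with each of the 15 libraries left out in turn. Their lowest values were 1.30, 1.77 and 2.86 on the log2 scale. The 4 lineage-negative libraries enter this comparison only through the filter, the scaling and the shared spread. Without AML replicates 5 and 6, which had the highest background of silent receptor genes within AML, Tlr1 was also called after TMM scaling, at 1.06.

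**Figure D2:**
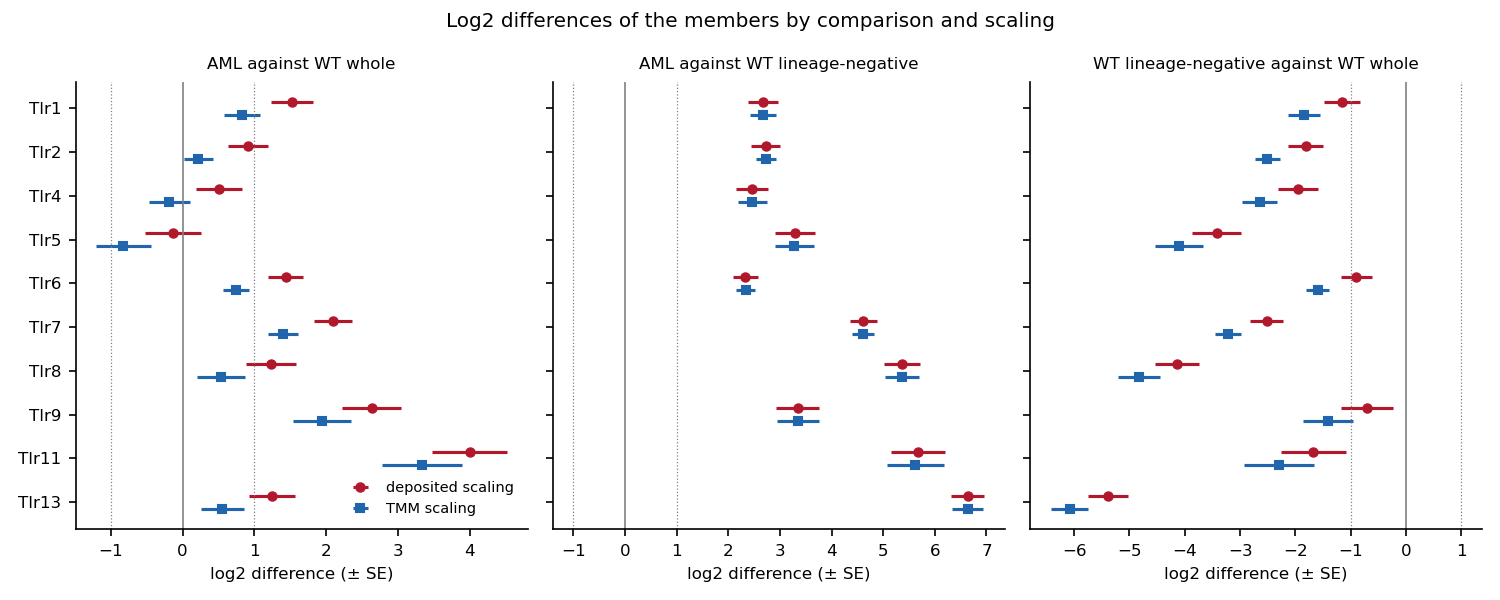
Log2 difference ± SE of the 10 receptor genes in the 3 comparisons, with the deposited scaling (circles) and after TMM scaling (squares); dotted lines mark a log2 difference of 1 in size. TMM scaling moves the values against whole marrow to the left, so that Tlr7, Tlr9 and Tlr11 stay above 1, and leaves AML against lineage-negative marrow nearly in place.

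Tlr3 and Tlr12, receptors of double-stranded RNA and of profilin, were called higher in AML in both comparisons and on both scales. Tlr3 (ENSMUSG00000031639) ranged from 77.7 to 908 normalized counts in AML, from 17.95 to 28.7 in whole marrow and from 2.64 to 10.4 in lineage-negative marrow. Its whole marrow level was 1.07 to 3.24 times the background of silent receptor genes. Tlr12 (ENSMUSG00000062545), which pairs with Tlr11, ranged from 149 to 433 in AML, from 42.2 to 83.1 in whole marrow and from 48.9 to 90.8 in lineage-negative marrow. Between the WT marrows Tlr12 was not called on either scale, with a log2 difference of 0.33 as deposited.

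Divided by exonic length, levels can be ordered across genes. In AML the order ran from Tlr13, with 901 ± 214 normalized counts per kb (SD, n = 7), through Tlr2 at 579 ± 155 to Tlr8 at 328 ± 115, Tlr9 at 316 ± 149, Tlr7 at 281 ± 84.1 and Tlr4 at 212 ± 111. Tlr6 followed at 158 ± 32.2, Tlr1 at 113 ± 42.5, Tlr11 at 93.8 ± 136 and Tlr5 at 32.6 ± 21.5. Tlr13 exceeded Tlr2 in 7 of 7 AML libraries and Tlr2 exceeded Tlr8 in 7 of 7, while each gene from Tlr8 on overlapped the next in the order.

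In whole marrow Tlr13 and Tlr2 also led, at 384 ± 114 and 332 ± 139 normalized counts per kb (SD, n = 4), and their ranges overlapped. Tlr4 was at 144 ± 52.6, Tlr8 at 136 ± 41.1, Tlr7 at 66.7 ± 22.9, Tlr6 at 60.95 ± 22.1, Tlr9 at 48.6 ± 19.4, Tlr1 at 38.7 ± 12.5 and Tlr5 at 31.8 ± 6.72. Each of these overlapped its neighbour in the order, and only Tlr11, at 3.35 ± 0.77, lay wholly below the gene before it. In lineage-negative marrow the order began with Tlr2, at 86.5 ± 18.8 normalized counts per kb (SD, n = 4), above Tlr4 at 34.7 ± 1.35, Tlr9 at 31.7 ± 19.5 and Tlr6 at 31.2 ± 7.52. Tlr1 was at 16.7 ± 3.50, Tlr7 at 11.1 ± 3.08, Tlr13 at 10.3 ± 7.42, Tlr8 at 8.36 ± 5.04, Tlr5 at 3.05 ± 1.503 and Tlr11 at 0.843 ± 0.27. Tlr2 over Tlr4 and Tlr6 over Tlr1 were the only neighbours there whose ranges did not overlap. Tlr13 thus stood first in AML and whole marrow and seventh of the 10 in lineage-negative marrow.

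Shares of the summed level per kb do not depend on the scaling between libraries. The sums themselves do depend on it. Summed over the 10 genes, deposited normalized counts per kb were 3013 ± 567 for AML, 1246 ± 413 for whole and 234 ± 48.8 for lineage-negative marrow (SD; n = 7, 4 and 4). The 5 endosomal receptors made up 63.7 ± 4.16% of the sum in AML, 52.2 ± 3.87% in whole marrow and 25.6 ± 6.63% in lineage-negative marrow. The AML shares ran from 56.9% to 69.6% and the whole marrow shares from 48.7% to 57.7%, so these groups met at their edges, while lineage-negative marrow, at 19.4% to 33.7%, was apart. These shares are described without a test.

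Single genes differed in how they contributed. Tlr13 held 29.8 ± 3.96% in AML, 31.4 ± 3.20% in whole marrow and 4.07 ± 2.07% in lineage-negative marrow. Tlr7 held 6.43% to 12.3% in AML, 4.74% to 5.85% in whole marrow and 2.88% to 7.83% in lineage-negative marrow, so its AML shares lay above those of whole marrow alone. Tlr9 held 10.7 ± 4.78% in AML, 3.88 ± 0.759% in whole marrow and 12.7 ± 5.31% in lineage-negative marrow. By share Tlr9 in AML was thus nearer to lineage-negative than to whole marrow, although its level was higher than in both. The share of Tlr2 was 19.3 ± 3.28% in AML, 25.7 ± 4.05% in whole marrow and 36.9 ± 3.27% in lineage-negative marrow.

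**Figure D3:**
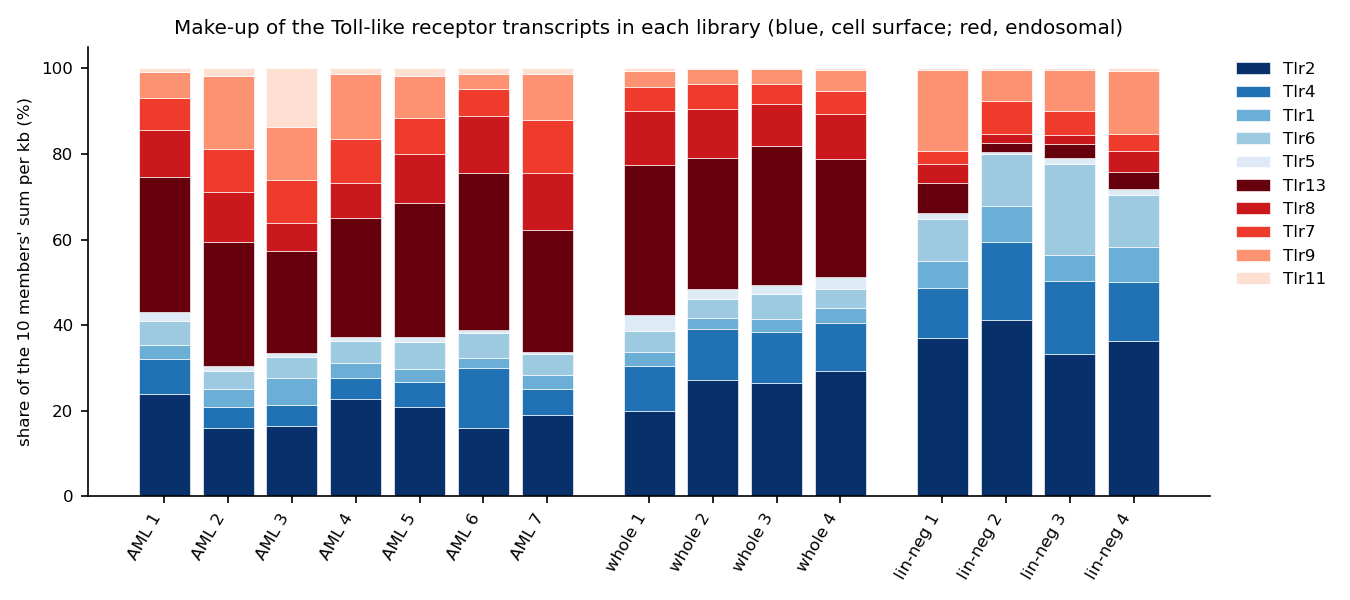
Share (%) of each receptor gene in the summed level per kb of the 10 genes, 1 bar per library, with surface receptors in blue and endosomal receptors in red. Red parts fill 56.9% to 69.6% of the AML bars, 48.7% to 57.7% of the whole marrow bars and 19.4% to 33.7% of the lineage-negative bars.

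The AML libraries differed among themselves most in Tlr11, whose coefficient of variation was 145%, and then in Tlr5 at 65.9%, Tlr4 at 52.5% and Tlr9 at 47.1%. Tlr6 varied least, at 20.4%. The highest library exceeded the lowest by 13.7 times for Tlr11, 5.70 times for Tlr9, 4.50 times for Tlr5 and 3.73 times for Tlr4. For Tlr2 and Tlr13 it did so by 1.89 and 1.87 times. The rank of Tlr11 rests on AML replicate 3: over the other 6 libraries its coefficient of variation was 29.1% and its highest library exceeded its lowest by 2.16 times. That of Tlr5 was also 29.1% over the 6 libraries other than replicate 1.

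The highest values of the receptors were spread over several leukaemias, and some libraries were highest for more than 1 receptor. AML replicate 3 had the highest Tlr1 (625.3 normalized counts), Tlr11 (1310) and Tlr3 (908). It also had the highest Xcr1 (1230), Clec9a (1022) and Itgae (1701), genes of conventional dendritic cells. In the other 6 AML libraries Xcr1 was 64.9 to 172 and Itgae 58.5 to 216. Replicate 3 also had the highest sums of B cell markers (6425) and erythroid markers (6360) within AML. AML replicate 1 had the highest Tlr2 (2711), Tlr5 (378), Tlr6 (789.9) and Tlr13 (5109). It also had the highest sums of neutrophil markers, 1397520, and of monocyte and macrophage markers, 135818. Cxcr2, the neutrophil chemokine receptor, was highest there too, at 10236. Tlr7 (1752) and Tlr8 (1678) were highest in AML replicate 7.

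AML replicate 6 had the highest Tlr4 (2317) and the lowest Tlr9 (349). It also had the lowest Tlr5 in AML (83.9), although its Cxcr2 was 9955 and its sum of neutrophil markers, 996087, was the second highest. Its Siglech, a gene of plasmacytoid dendritic cells, was 55.5, and its Csf1r, the receptor of macrophage colony stimulating factor, was lowest in AML at 4703. Siglech was highest in AML replicates 7 (2224) and 2 (2170), and Tlr9 was highest in replicate 2 (1991). In replicate 3 Siglech was 181 while Tlr9 was 1233, so the pair did not follow each other throughout. In lineage-negative marrow replicate 1 had the highest Tlr2, Tlr5, Tlr8, Tlr9 and Tlr13 and the highest sum of neutrophil markers, 18281. Its sums of monocyte and macrophage (29727), erythroid (10199.5) and T and NK cell markers (1909) were also the highest of that group. The part of such cells in the receptor values was not tested.

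**Figure D4:**
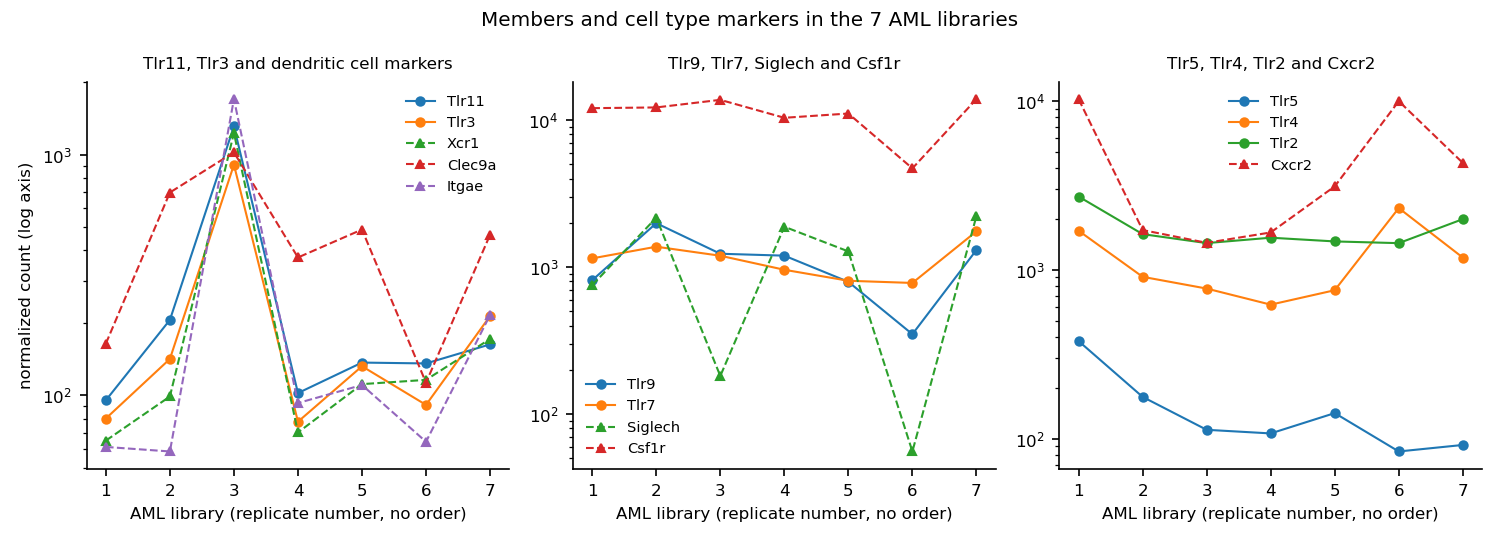
Normalized counts (log axis) of receptor genes (circles, solid lines) and cell type markers (triangles, dashed lines) in the 7 AML libraries; lines join values of a gene, and the replicate numbers have no order. Tlr11 and Tlr3 peak with Xcr1 and Itgae in replicate 3, Tlr9 and Siglech are lowest in replicate 6, and Tlr5 and Cxcr2 are highest in replicate 1.

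Tlr7, Tlr8 and Tlr13 lie on the X chromosome. Xist, the RNA of the inactive X chromosome in females, was 12308 to 24744 normalized counts in 5 AML libraries and at most 5.81 in AML replicates 3 and 5. It was 15.2 to 34.3 in whole marrow and at most 12.3 in 3 lineage-negative libraries, with 46318 in lineage-negative replicate 4. Tlr7 in AML replicates 3 and 5 was 1195 and 807 normalized counts, both above every whole marrow. Tlr8 there was 667 and 970, and Tlr13 2999 and 3139, again above every whole marrow as deposited. After TMM scaling Tlr8 in AML replicate 3 was 609, below all 4 whole marrows, at 613 to 783. It was also below them in AML replicate 4 (591), where Xist was 20900, and above them in AML replicate 5 (805). Xist levels thus differed between AML and whole marrow, and their part in the receptor values was not tested.

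Genes that work with the receptors were counted from lists of pathway genes. Over all genes tested, 27.3% were called higher and 11.3% lower in AML than in whole marrow (4.73% and 16% after TMM scaling). Against lineage-negative marrow 17.7% were called higher and 12.5% lower. Of 6 coreceptors and ligand carriers, 3 were called higher and 1 lower in AML than in whole marrow (2 and 1 after TMM scaling). Ly86 and Cd180, which form a complex that modulates Tlr4 signalling, rose by 2.46 and 2.11 on the log2 scale (1.76 and 1.41 after TMM scaling). Ly86 was 3343 ± 936 normalized counts (SD, n = 7 AML libraries) against 600.05 ± 136 in whole marrow (SD, n = 4). Cd14, which hands lipopolysaccharide to Tlr4, was higher by 1.47 (0.78 and not called after TMM scaling), and Cd36, a scavenger receptor that assists Tlr2 and is also found on erythroid cells, had log2 differences of −3.17 and −3.86 on the 2 scales. Against lineage-negative marrow 5 of the 6 were higher and none lower, among them Ly96, the Tlr4 partner, by 2.54.

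Of 9 genes of receptor folding and endosomal trafficking, 6 were called higher and none lower than in whole marrow (2 and none after TMM scaling). Unc93b1, which carries nucleic acid receptors to endosomes, was 9885 ± 1558 normalized counts for AML, 2858 ± 722 for whole and 2926 ± 800 for lineage-negative marrow (SD; n = 7, 4 and 4). It was higher by 1.81 against whole marrow (adjusted p = 1.9e-06) and by 1.12 after TMM scaling. Ctss, a protease that cleaves endosomal receptors, was higher by 2.58 (1.88 after TMM scaling), and Ctsl by 1.49 (0.80, not called). Against lineage-negative marrow 7 of the 9 were called higher, led by Ctss (4.32), Slc15a3 (4.24) and Lgmn (3.15).

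Of 14 adaptors and proximal kinases, 5 were called higher and 1 lower than in whole marrow (1 and 1 after TMM scaling). The median log2 difference of this list was 0.88 beside 0.67 for all genes, and 0.19 beside −0.01 after TMM scaling. Myd88, the common adaptor, was 2453 ± 487 normalized counts for AML, 926 ± 330 for whole and 627 ± 101 for lineage-negative marrow (SD; n = 7, 4 and 4). Its log2 difference against whole marrow was 1.46 (0.77, not called after TMM scaling), and against lineage-negative marrow it was 1.96. Ticam2, a bridging adaptor of Tlr4, was higher than in whole marrow on both scales, by 1.85 and 1.15, and Ticam1 by 1.51 (0.82, not called). Tab3, a subunit of the TAK1 kinase complex, was called lower, with log2 differences of −1.06 and −1.76 on the 2 scales. Against lineage-negative marrow 5 of the 14 were higher and none lower, among them Pik3ap1 (1.86) and Tirap (1.79).

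Of 11 inhibitors 10 were tested, and 5 were called higher than in whole marrow (1 after TMM scaling) with none lower. Their median log2 difference was 0.98 beside 0.67 for all genes, and 0.29 beside −0.01 after TMM scaling. Sigirr, a decoy receptor of the family, was higher on both scales, by 1.92 and 1.23. Tnip3 and Tnfaip3, which restrain NF-kB, were higher by 1.5 and 1.37, not called after TMM scaling. Against lineage-negative marrow only Tnip3 (2.10) and Nfkbia (1.35) of the 10 were called. All 8 transcription factors were called higher than in whole marrow, and 1 after TMM scaling, Irf5, by 2.20 and 1.5. The median of these 8 was 1.56 beside 0.67 for all genes, and 0.87 beside −0.01 after TMM scaling. Irf5 was 5262 ± 1014 normalized counts for AML, 1162 ± 309 for whole and 504 ± 184 for lineage-negative marrow (SD; n = 7, 4 and 4). Relb and Nfkb2 had differences of 1.66 and 1.63 against whole marrow. Against lineage-negative marrow 5 of the 8 were higher, led by Irf7 (3.55), Irf5 (3.42) and Relb (2.99).

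Cytokines, chemokines and response genes that the receptors can induce moved in both directions. Of 17 such genes 13 were tested, and 1 was called higher and 3 lower than in whole marrow (1 and 5 after TMM scaling). The chemokine Ccl5 was higher by 2.00 (1.31 after TMM scaling). Ptgs2, the inducible cyclooxygenase, averaged 86.8 ± 2.67 normalized counts over the whole marrows (SD, n = 4) and ranged from 3.37 to 91.3 over the 7 leukaemic ones, a log2 difference of −2.74. Il1b, an inflammatory cytokine, had log2 differences of −1.14 against whole and 4.24 against lineage-negative marrow, both called, with 675 ± 247, 1606 ± 787 and 37.2 ± 17.3 normalized counts in AML, whole and lineage-negative marrow. The cytokine Il6 was called lower than in both WT marrows, and was 0 to 8.58 normalized counts in AML, around the level of 3 reads, 15.3 to 23.2 in whole marrow and 92.7 to 245 in lineage-negative marrow.

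Against lineage-negative marrow 6 of the 13 were called higher and 5 lower, whereas no receptor gene was called lower. The chemokines Ccl3 and Ccl4 were called lower, with log2 differences of −4.26 and −3.38. Ccl3 was 72.5 ± 43.2 normalized counts (SD, n = 7 AML libraries) against 1313 ± 432 in lineage-negative marrow (SD, n = 4). Ccl5 and the acute phase gene Saa3 were higher by 3.54 and 2.79.

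**Figure D5:**
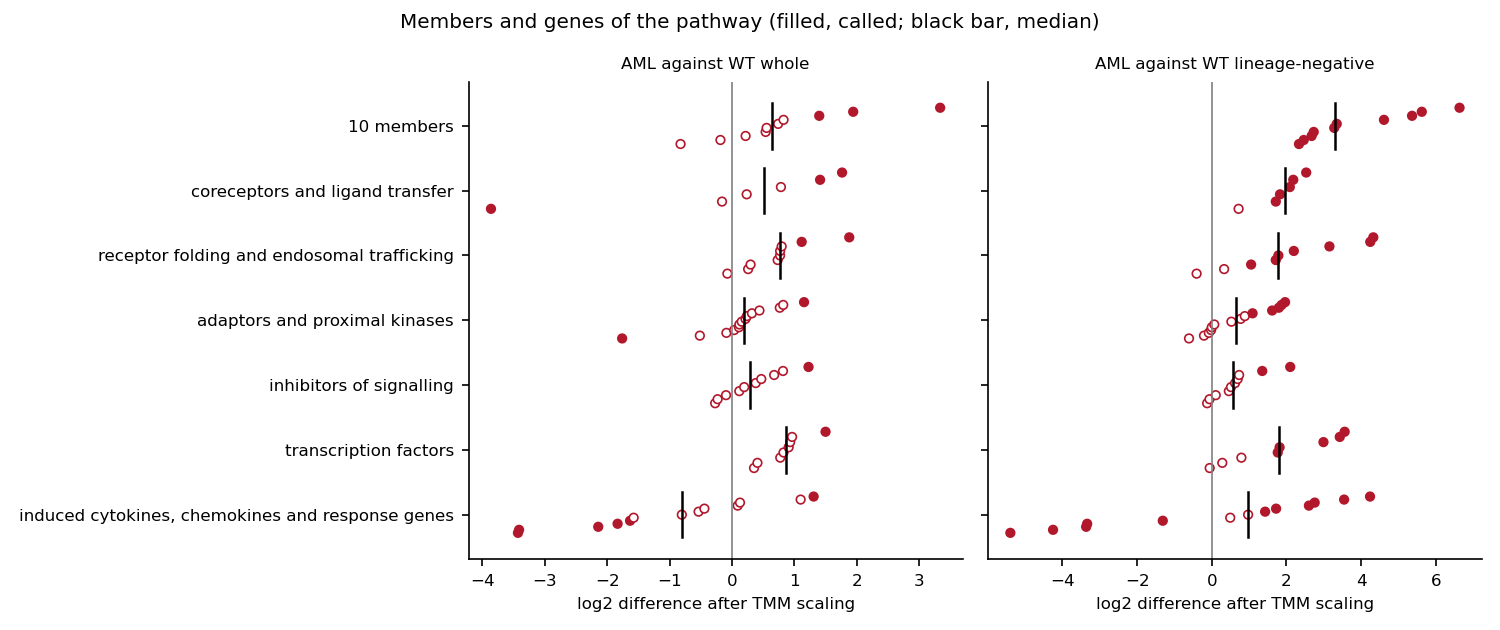
Log2 differences after TMM scaling of the 10 receptor genes and of 6 lists of pathway genes, for AML against whole marrow (left) and against lineage-negative marrow (right); filled points were called and black bars are medians. The receptor genes lie wholly to the right of 0 in the right panel, while the induced genes lie on both sides of 0 in both panels.

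Across the 15 libraries, which fall into the 3 groups and share their differences, the genes whose log2 level was most like that of each receptor were listed by Pearson correlation. Predicted genes were skipped in this ranking, meaning names of Gm plus digits, names ending in Rik and bare identifiers. Tlr8 and Tlr13 were closest to each other within the family (r = 0.991, n = 15 libraries), and the gene most like Tlr13 was Pirb, a paired immunoglobulin-like receptor (0.996), followed by Sirpb1c and Klra2. Tlr11 was most like Tlr3 (0.985), followed by the MHC class II gene H2-Ab1 (0.976) and Cxcl16 (0.973). Tlr5 was most like Trp53inp2 (0.966), the granulocyte surface gene Ly6g (0.966) and Tnfrsf23. Tlr7 was most like Map3k8 (0.989), the macrophage gene Cd68 (0.986) and Apoc2. Tlr9 was most like Lrp1 (0.979), Ahnak and Plekhm3.

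Tlr1 was most like P2ry6 (0.988), Abi3 and Metrnl, and Tlr2 most like Lats2 (0.994), Hbp1 and Rhbdf2. Tlr4 was most like Ggt5 (0.982), Tcn2 and its own adaptor Tirap (0.973), and Tlr6 most like Rnf149 (0.977), Skap2 and Acap2. The nearest genes to Tlr8 after Tlr13 were Xdh (0.990) and Pirb (0.990). With TMM scaling the first gene was the same for Tlr1, Tlr5, Tlr8, Tlr11 and Tlr13 and another for the other 5, such as Il1r2 for Tlr4 (0.986) and Apoc2 for Tlr7 (0.988).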

How the data were processed

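Total RNA of 15 marrow samples was sequenced, with TRIzol extraction and a stranded total RNA kit per the labels. The authors deposited estimated counts per gene divided by a DESeq2 size factor of the poscounts type, per the file headers, a unit called signal here and normalized count in the text. The submitters' processing notes name STAR, Partek, DESeq2 and mm10, with no versions. The strand used for counting is not given in the sources used here, and no gene of the table overlaps any of the 10 receptor genes. Of 38066 gene identifiers found in a GRCm38 annotation 861 have the same start there, so gene coordinates are those of the table, whose build it does not state, and only exonic lengths come from the annotation. In each library 84.3% to 88.8% of low values were whole multiples of the value of 1 read, within 0.02 of it, so whole reads were not recovered and no count test was run.

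Genes with at least 10 normalized counts in at least 4 samples were kept, which removed 19374 and left 18941, all 10 receptor genes among them. Values were taken as log2(normalized count + 1), and limma 3.58.1 under R 4.3.3 fitted the means of the 3 groups together, with a trended empirical Bayes variance, two-sided tests and Benjamini-Hochberg adjustment over the genes kept. TMM factors were computed in R on the deposited values. The procedure was tested on simulated data. Groups and replicate numbers come from the sample titles, and nothing says that equal numbers pair samples. The text names the 10 genes, Tlr3 and Tlr12, up to 3 called genes per pathway list, direction and comparison with AML, and the 3 genes most like each receptor. The receptor genes, the lists and the naming rule were chosen with earlier results of these data known. Alternatives were other pseudocounts, filters, scalings, variance models, the replicate block, background subtraction and left-out libraries. Intervals for single shares are not given, and floors cover counting error only.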

Additional observations from a re-analysis of the deposited data

Results flagged for a closer look

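Within 30 groups of 4 or 7 libraries, each a receptor gene in a group, 3 held a library far from the others, where chance gives about 1 in 20. Tlr11 in AML replicate 3, at 1310 normalized counts, lay above the other 6 AML libraries with a gap of 0.909 of the group's range. Tlr5 in AML replicate 1, at 378 normalized counts, lay above the other 6 with a gap of 0.685 of the range. Tlr2 in whole marrow replicate 1, at 379.6 normalized counts, lay below the other 3 whole marrows with a gap of 0.837 of the range. That library was the lowest whole marrow for 9 of the 10 receptor genes on the deposited scale. Its total was 10221000 normalized counts, against 17865200 to 19285200 in the other whole marrows. As deposited, its sum was the lowest of the whole marrows for every cell marker list and every pathway list. Among these were the erythroid (104307), eosinophil (17237), B cell (4040) and neutrophil markers (433801). After TMM scaling its Tlr2 was still the lowest of them (811), while its Tlr5 (245) and Tlr11 (26.8) were the highest.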

How the results depend on the processing

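The scaling between libraries decided the calls against whole marrow. With the deposited scaling 7 receptor genes were called higher in AML, and 3 were with TMM scaling, with quantile scaling and with TMM scaling after background subtraction. Tlr4 turned to −0.19, −0.25 and −0.31 under these settings, none called. After TMM scaling, leaving out 1 library at a time gave 0 to 1 receptor genes called lower, Tlr5 being called without AML replicate 1. Correlations of the deviations of same-numbered libraries ran from −0.288 to 0.171, and the labels do not say whether a number marks a shared animal, so the numbers were not treated as pairs. With a replicate block 6 receptor genes were called higher than in whole marrow and 10 higher than in lineage-negative marrow. The block turned Tlr5 to 0.17, not called, and gave Tlr8 1.05 with an adjusted p of 0.0548.

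Between the WT marrows Tlr6 and Tlr9 were called under TMM scaling, quantile scaling and array weights. Tlr11 lost its call there with a pseudocount of 5 (−1.04), with quantile scaling (−0.22) and after background subtraction (−0.28). Of 870 receptor differences under an alternative, 832 kept their direction and side of the threshold. Some of these alternatives left out a library of the group outside the comparison, which cannot move the deposited difference itself. Over all genes, the number called higher in AML than in whole marrow ran from 896 to 7004 around 5167, and lower from 460 to 11289 around 2132. For AML against lineage-negative marrow the ranges were 2225 to 3603 and 1595 to 2741. Lineage-negative against whole marrow gave 2075 to 7598 higher and 1244 to 12497 lower. The cause of these changes was not tested. Depth limits Tlr11 in lineage-negative marrow, where 3 of 4 values are at or under 3 reads.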
